A study of Mus musculus with 6 samples.

Results

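Interferon-stimulated genes (ISGs) were examined in plasmacytoid dendritic cells (pDCs) to which no interferon and no Toll-like receptor ligand is said to have been added. The list held 41 textbook ISGs, and a gene was taken where the platform table pairs a probe set with its symbol alone. This gave 38 genes, each with 1 probe set, of 19937 genes and 21640 such probe sets in the series. The probe set of *Isg15* is shared with *Gm9706* and that of *Gbp2* with *Gbp2b*, so these genes and *Ifi44* are not analysed here.

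All arrays came from bone marrow of C57BL/6 mice of the genotype Gfi1f/f; Gfi1bf/f; ERCre, in which both *Gfi1* and *Gfi1b* are floxed and a tamoxifen-activated Cre is expressed from the *Rosa26* locus. Marrow of each of 3 mice was cultured with Flt-3L at 25 ng/ml, 1 culture without an agent (WT) and 1 with 1 µM tamoxifen (KO), and B220+ CD11c+ cells were sorted. The sorted cells are called pDCs here, although transcripts of macrophage, B lineage and other marker genes were also found in them, as given below. Each of the 6 cultures gave 1 Affymetrix Mouse Gene 1.0 ST array. The WT cultures also carry the floxed alleles and the Cre, and no vehicle or Cre-only control is given, so loss of GFI proteins, tamoxifen and active Cre cannot be told apart. By genotyping, the deletion in such cultures was inefficient. Ages were not given in the sources used here.

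Type I interferons bind a receptor of IFNAR1 and IFNAR2, whose kinases JAK1 and TYK2 phosphorylate STAT2. STAT2 joins IRF9 in the factor ISGF3, which binds interferon-stimulated response elements in ISG promoters. pDCs are known as strong producers of type I interferon after sensing viral nucleic acids, and many cells keep a low level of ISG transcripts without infection. Values below are normalized intensities on a linear scale, and differences are log2 intensities of KO minus WT. A level was called within background at or below 61.5, the 95th percentile of the mean levels of 1208 probe sets for smell and pheromone receptors, genes that blood cells should lack.

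No ISG passed the test for a common change in KO pDCs, while the 3 mice differed in both level and direction. In limma, 0 of the 38 genes passed an adjusted p of 0.05, where 0% of all 21640 probe sets did (smallest adjusted p = 0.69 for the members and for all). At an unadjusted p under 0.05, 1 gene was higher, where 5.14% of all probe sets were, and 0 were lower, where 1.9% were. With the mouse as a block the counts were 1 (7.46% of all probe sets) and 0 (5.99%). The smallest adjusted p from limma was then 0.31 for the members and 0.071 for all probe sets. Unless the block is named, standard errors and p values below are from the fit without it. Those standard errors hold the spread between mice, with a median of 0.27 over the 38 genes, against 0.16 with the block. The median difference of the 38 genes was 0.05 (quartiles -0.02 to 0.18), beside 0.03 (quartiles -0.10 to 0.15) for all probe sets. Within mice 1, 2 and 3 the median of the 38 genes was 0.47, -0.16 and -0.11, beside -0.00072, 0.02 and 0.04 for all probe sets. After quantile normalization the median of mouse 2 was -0.07.

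In mouse 1, 37 of the 38 genes were higher in the KO culture, where 49.8% of all probe sets were. In mouse 2 only 8 were higher (52.4% of all) and in mouse 3 only 12 (56.2% of all). A higher KO level in mouse 1 with a lower one in mice 2 and 3 was seen in 23 of the 38 genes, against 11.4% of all probe sets, and the opposite pattern in 0, against 16.2%. The KO culture of mouse 1 was at least 1.5-fold above its WT culture for 15 genes (2.28% of all). For *Ifit1*, *Ddx60* and *Rsad2* among these, the WT level of mouse 1 was within background. The KO culture was at least 1.5-fold below the WT culture for 2 genes in mouse 2 (3.13% of all), *Ddx58* and *Rtp4*, and for 1 in mouse 3 (3.78% of all), *Ddx58*. Each mouse gave 1 pair of cultures, so the difference between mice has no replicate and was not tested. These patterns were chosen after the values were seen.

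**Figure D1:**
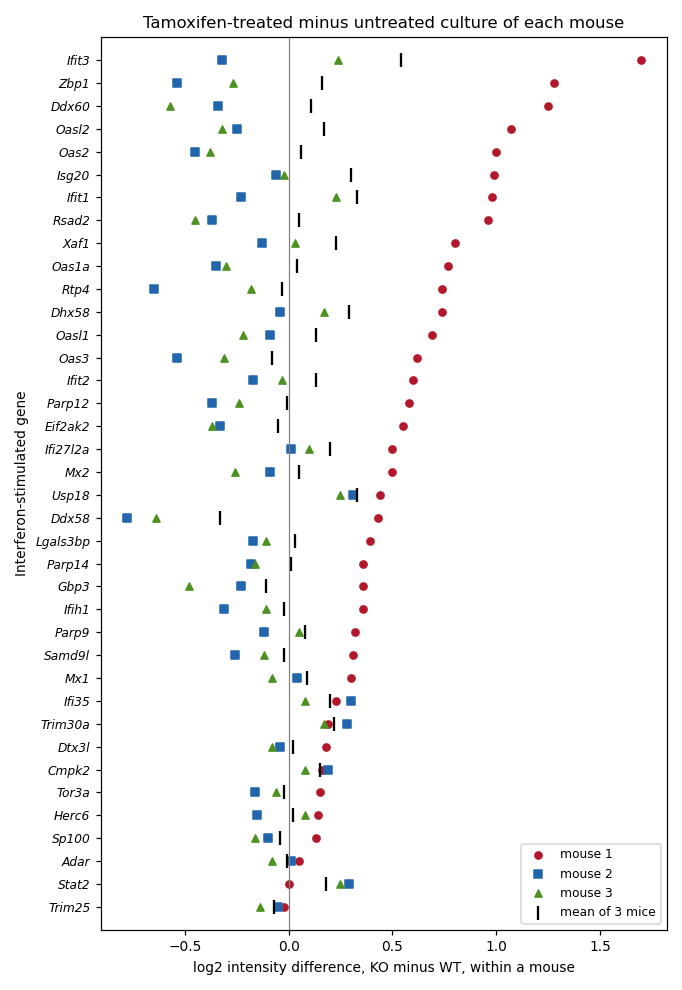
Log2 intensity difference, KO minus WT, within mouse 1 (circles), mouse 2 (squares) and mouse 3 (triangles) for the 38 ISGs, ordered by the difference in mouse 1, with the mean as a bar. All genes but *Trim25* lie at or right of 0 in mouse 1, up to 1.70 for *Ifit3*, while most lie left of 0 in the other 2 mice.

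Many ISGs in untreated pDCs were lowest in mouse 1, while *Stat2*, *Trim30a*, *Sp100* and *Adar* were highest there. The WT array of mouse 1 was at least 2-fold below both other WT arrays for 18 of the 38 genes (4.47% of all probe sets) and at least 2-fold above them for 0 (1.12% of all). Among the KO arrays, that of mouse 1 was at least 2-fold below both others for 7 genes, *Ifit1*, *Ifit2*, *Ifit3*, *Ddx58*, *Rsad2*, *Parp12* and *Rtp4* (2.56% of all). Both arrays of mouse 1 lay below all 4 arrays of mice 2 and 3 for 21 genes (14.5% of all) and above them for 2, *Adar* and *Sp100* (21.6% of all). The median of mouse 1 minus the mean of mice 2 and 3 was -0.88 in WT and -0.30 in KO pDCs, beside 0.07 and 0.02 for all probe sets. Mice 2 and 3 were closer to each other, although mouse 2 was the lower of the 2 for 31 genes in WT (46.9% of all) and 30 genes in KO pDCs (51.5% of all).

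**Figure D2:**
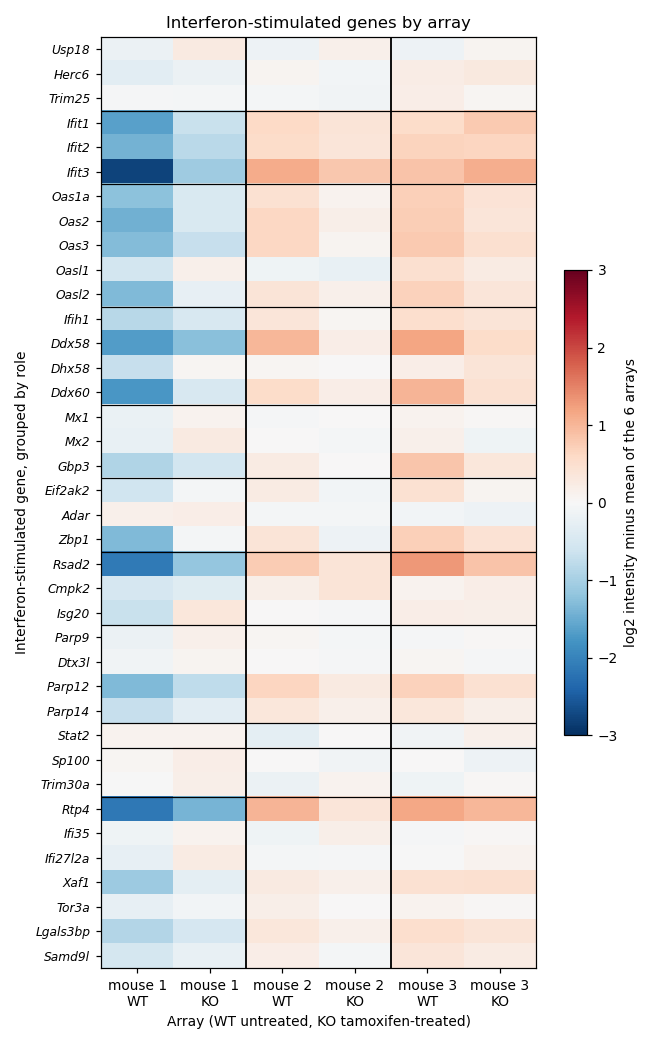
Log2 intensity of the 38 ISGs on each of the 6 arrays minus the mean of that gene over the 6 arrays, with WT and KO of a mouse side by side and lines between groups of genes by role. The WT column of mouse 1 is the lowest for all IFIT, OAS and helicase genes, its KO column lies below the other 4 for all of these but *Oasl1* and *Dhx58*, and its WT column lies below its KO column for 37 genes.

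The IFIT proteins bind viral RNA and block its translation. The intensity of *Ifit3* was 109, 1631 and 1347 in the WT cultures of mice 1, 2 and 3 and 355, 1305 and 1594 in the KO cultures. That of *Ifit1* was 44.8, 213 and 203 in WT and 88.1, 182 and 239 in KO pDCs, with the first value within background. That of *Ifit2* was 134, 520 and 564 in WT and 203, 461 and 552 in KO pDCs. For all 3 genes both arrays of mouse 1 lay below the other 4, and the WT and KO groups overlapped. Among the members above background on every array *Ifit3* had the widest gap in WT pDCs, where the level of mice 2 and 3 was 13.6-fold that of mouse 1, and the KO level 4.07-fold. Its differences of 1.70, -0.32 and 0.24 had a mean of 0.54. The standard error was 1.14 without the mouse as a block (adjusted p = 0.92 from limma). With the block it was 0.35 (adjusted p = 0.5 from limma).

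The promoters of *Ifit3* and *Ifit1* carry the core of the response element that ISGF3 binds, and so do those of some other members. The core was searched as a GAAA tetramer followed after any 2 bases by a second one, on both strands, in the 300 bases from 250 before to 50 after each RefSeq start site (GRCm38.p6). Of the 27 measured ISGs with an entry, 12 (44.4%) held it, against 3.99% of 27025 genes and 3.44% of 32851 promoters. It was found in 9 of the 14 genes with an entry that were at least 2-fold below both others in the WT array of mouse 1, and in 3 of the other 13. The median WT fold of mice 2 and 3 over mouse 1 was 3.79 for genes that held it and 1.64 for the rest, or 3.45 and 1.64 with genes within background in the WT array of mouse 1 taken at the background level. These genes are known ISGs, so the share is a description of the list. The split by the gap of mouse 1 was made after the values were seen and rests on 1 WT array. Members without an entry include *Rtp4*, *Oas2*, *Zbp1* and *Parp14*, which were also low in that array. Whether the core has a part in the gap was not tested. The gamma-activated sequence, TTC and GAA with any 3 bases between them, was in 6 of the 27 genes (22.2%), against 9.55% of all genes.

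The 170 bases before the start are shown for 5 members with low levels in mouse 1 and for *Trim30a*, which also holds the core but was not low in mouse 1. Capitals mark the tetramer pairs, read on the strand of the gene, so that a pair on the other strand appears as TTTC. The stretches are chr19:34583359-34583528 on the plus strand for *Ifit3*, chr19:34640719-34640888 on the plus strand for *Ifit1*, chr12:26456453-26456622 on the minus strand for *Rsad2*, chr5:120777660-120777829 and chr5:120907526-120907695 on the minus strand for *Oas3* and *Oas1a*, and chr7:104465194-104465363 on the minus strand for the first of 2 start sites of *Trim30a*. The pairs begin 156 and 122 bases before the start in *Ifit3*, 104 and 85 in *Ifit1*, 120 in *Rsad2*, 75 in *Oas3*, 20 and 14 (overlapping) in *Oas1a* and 36 in *Trim30a*.
Ifit3: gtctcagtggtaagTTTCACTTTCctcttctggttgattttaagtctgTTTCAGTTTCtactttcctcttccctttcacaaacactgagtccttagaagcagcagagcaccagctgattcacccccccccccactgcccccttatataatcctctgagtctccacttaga
Ifit1: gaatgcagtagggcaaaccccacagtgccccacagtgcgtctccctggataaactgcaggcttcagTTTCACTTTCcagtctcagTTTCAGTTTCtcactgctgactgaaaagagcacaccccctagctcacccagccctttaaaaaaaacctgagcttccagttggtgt
Rsad2: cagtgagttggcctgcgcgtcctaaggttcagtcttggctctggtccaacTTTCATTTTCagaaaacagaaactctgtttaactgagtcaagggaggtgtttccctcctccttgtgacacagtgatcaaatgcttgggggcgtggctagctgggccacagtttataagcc
Oas3: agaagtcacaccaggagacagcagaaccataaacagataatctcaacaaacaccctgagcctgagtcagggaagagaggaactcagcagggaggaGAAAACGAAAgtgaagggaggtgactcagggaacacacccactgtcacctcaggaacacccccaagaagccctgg
Oas1a: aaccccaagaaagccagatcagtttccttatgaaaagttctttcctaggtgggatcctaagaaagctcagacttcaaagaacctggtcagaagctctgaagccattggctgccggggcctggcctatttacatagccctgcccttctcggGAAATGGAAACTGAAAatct
Trim30a: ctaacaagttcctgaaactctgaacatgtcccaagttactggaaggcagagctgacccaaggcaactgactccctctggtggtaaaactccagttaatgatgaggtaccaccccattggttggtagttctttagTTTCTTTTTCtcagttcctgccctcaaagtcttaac

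The OAS enzymes make 2′-5′ oligoadenylates, which activate RNase L, and *Oasl1* encodes a member of the family known to restrain translation of IRF7. *Oasl2* had intensities of 252, 830 and 1014 in the WT cultures of mice 1, 2 and 3 and of 529, 697 and 814 in the KO cultures. *Oas2* had 115, 486 and 521 in WT and 229, 357 and 402 in KO pDCs. *Oas3* had 89.3, 343 and 383 in WT and 138, 236 and 309 in KO pDCs. The KO culture thus lay above the WT culture in mouse 1 and below it in mice 2 and 3, a pattern shared by all 5 genes of the family. *Oas1a* had differences of 0.77, -0.35 and -0.30. *Oasl1*, at 174, 232 and 350 in WT and 281, 218 and 302 in KO pDCs, was the member whose KO array of mouse 1 was not below the other KO arrays. Mean differences of the family ran from -0.08 (*Oas3*, standard error 0.61) to 0.17 (*Oasl2*, standard error 0.52). With the mouse as a block these standard errors were 0.22 and 0.27.

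Among cytosolic RNA sensors, *Ddx58* encodes RIG-I and *Ifih1* encodes MDA5, which detect viral RNA, and *Dhx58* encodes LGP2, which modulates both. *Ddx58* had intensities of 70.3, 446 and 516 in the WT cultures of mice 1, 2 and 3 and of 94.7, 259 and 330 in the KO cultures. It had the lowest differences of the 38 genes in mice 2 and 3, -0.78 and -0.64. Its mean difference was -0.33 (standard error 0.86, adjusted p = 0.94 from limma). With the mouse as a block the standard error was 0.23 (adjusted p = 0.53 from limma). *Dhx58* had 179, 298 and 331 in WT and 298, 289 and 374 in KO pDCs, so that the KO array of mouse 1 was above that of mouse 2. *Ddx60*, a helicase linked to RIG-I signaling, had 44.7, 220 and 307 in WT and 107, 173 and 207 in KO pDCs, with the WT level of mouse 1 within background. The WT and KO groups overlapped for all 4 helicase genes. *Ifih1* had differences of 0.36, -0.31 and -0.11.

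Among binders of double-stranded or Z-form nucleic acid, *Zbp1* encodes a sensor that can start necroptosis, *Eif2ak2* the kinase PKR and *Adar* an RNA adenosine deaminase. *Zbp1* had intensities of 174, 571 and 715 in WT and 422, 393 and 594 in KO pDCs of mice 1, 2 and 3. *Eif2ak2* had 200, 359 and 415 in WT and 292, 286 and 320 in KO pDCs. In both genes the KO array of mouse 1 lay within 1.5-fold of the other KO arrays while its WT array was the lowest. *Adar*, at 382 to 487 over the 6 arrays, differed by 0.05, 0.01 and -0.08 within the mice.

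Enzymes that act on nucleotides or RNA include viperin, encoded by *Rsad2*, which makes a chain-terminating nucleotide, its neighbour *Cmpk2*, a mitochondrial nucleotide kinase, and the exonuclease gene *Isg20*. *Rsad2*, named after its values were seen, had 57.5, 422 and 612 in WT and 112, 327 and 449 in KO pDCs. *Cmpk2*, which has no other protein-coding gene between it and *Rsad2*, had 47.4, 77.1 and 73.1 in WT and 53, 88.2 and 77.3 in KO pDCs. Both arrays of mouse 1 were within background for *Cmpk2*, and the WT array was for *Rsad2*. Against the background level, the WT level of mice 2 and 3 was at least 8.26-fold that of mouse 1 for *Rsad2*, and for *Cmpk2* at least 1.22-fold. *Isg20* had 128, 204 and 230 in WT and 254, 196 and 227 in KO pDCs, so that mouse 1 was lowest among WT and highest among KO arrays.

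In the ISG15 system, USP18 removes ISG15 from proteins and blocks signaling at IFNAR2, while HERC6 and TRIM25 are ligases for ISG15. *Usp18* had intensities of 323, 328 and 328 in the WT cultures of mice 1, 2 and 3 and of 438, 406 and 390 in the KO cultures. It was the only member whose unadjusted p in limma was under 0.05, with KO values 1.35, 1.24 and 1.19 times the WT values of the same mouse. All 3 KO arrays lay above all 3 WT arrays (exact two-sided permutation test, p = 0.1, the smallest that 3 arrays against 3 allow). Full separation fixes this p, and the permutation takes no account of the pairing by mouse, so it adds nothing to the separation. Its mean difference of 0.33 (standard error 0.09) did not pass the test over all probe sets (adjusted p = 0.69 from limma). Its WT levels spanned only 323 to 328, where those of *Ifit3* spanned 109 to 1631. *Herc6* had 223, 294 and 325 in WT and 246, 264 and 343 in KO pDCs. *Trim25* had 918, 904 and 1075 in WT and 906, 874 and 974 in KO pDCs. It was the only member below its WT value in all 3 mice (17.4% of all probe sets were), at -0.02, -0.05 and -0.14, and after quantile normalization there was 0.

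Beside *Usp18*, 5 members were above their WT value in all 3 mice, which makes 6 of 38, where 21.3% of all probe sets were. *Trim30a*, a TRIM protein that dampens Toll-like receptor signaling, had 2444, 2197 and 2255 in WT and 2798, 2668 and 2542 in KO pDCs. *Ifi35*, which interacts with NMI, had 354, 352 and 376 in WT and 415, 434 and 397 in KO pDCs. With *Usp18* these were the 3 members whose KO arrays all lay above all WT arrays, where 10.2% of all probe sets did, and 0 had all KO arrays below, where 4.65% did. Mean differences were 0.22 (standard error 0.09) for *Trim30a* and 0.20 (standard error 0.09) for *Ifi35*, with adjusted p = 0.71 from limma for each. *Stat2*, the ISGF3 subunit, had 1085, 825 and 933 in WT and 1086, 1008 and 1111 in KO pDCs. Its differences were 0.0012, 0.29 and 0.25, the smallest in mouse 1, where those of the *Ifit* and *Oas* genes were the largest. *Ifi27l2a* had 4862, 5607 and 5802 in WT and 6885, 5662 and 6211 in KO pDCs, and *Cmpk2* was the sixth.

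The large GTPases Mx1 and Mx2 inhibit viral replication in strains with working alleles, and C57BL/6 mice are known to carry defective ones. *Mx1* had intensities of 204, 232 and 254 in the WT cultures of mice 1, 2 and 3 and of 252, 238 and 240 in the KO cultures. *Mx2* had 154, 184 and 200 in WT and 217, 173 and 166 in KO pDCs, so that mouse 1 was the lowest of the WT and the highest of the KO arrays. *Gbp3*, a guanylate-binding protein, had 61.5, 137 and 205 in WT and 79.1, 117 and 147 in KO pDCs. The gap between mouse 1 and the other mice was thus small for the *Mx* genes, at 1.19-fold and 1.25-fold in WT pDCs, and 2.72-fold for *Gbp3*.

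The ADP-ribosylation genes *Parp14*, *Dtx3l* and *Parp9* follow each other on the chromosome with no other protein-coding gene between them, and DTX3L and PARP9 act as a complex. *Parp9* had 423, 497 and 466 in WT and 528, 456 and 483 in KO pDCs, and *Dtx3l* 449, 487 and 497 in WT and 510, 472 and 470 in KO pDCs. Both varied by less than 1.5-fold over the 6 arrays. *Parp14* and *Parp12* were lower in both arrays of mouse 1, with WT levels of mice 2 and 3 of 2.02-fold and 4.03-fold that of mouse 1.

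Of the remaining members, *Rtp4*, which encodes a chaperone of receptors, is named after its values were seen, with 116, 1035 and 1152 in WT and 194, 659 and 1018 in KO pDCs. *Xaf1*, an antagonist of the apoptosis inhibitor XIAP, had 173, 445 and 502 in WT and 300, 407 and 513 in KO pDCs. *Lgals3bp*, a secreted glycoprotein, had 1262, 2929 and 3306 in WT and 1649, 2606 and 3054 in KO pDCs. For all 3 genes both arrays of mouse 1 were below the other 4. *Sp100*, a nuclear body protein, had 1311, 1262 and 1268 in WT and 1439, 1179 and 1133 in KO pDCs, highest in mouse 1. *Tor3a*, of the torsin family, had 253, 338 and 322 in WT and 282, 303 and 308 in KO pDCs. *Samd9l* had differences of 0.31, -0.26 and -0.12.

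**Figure D3:**
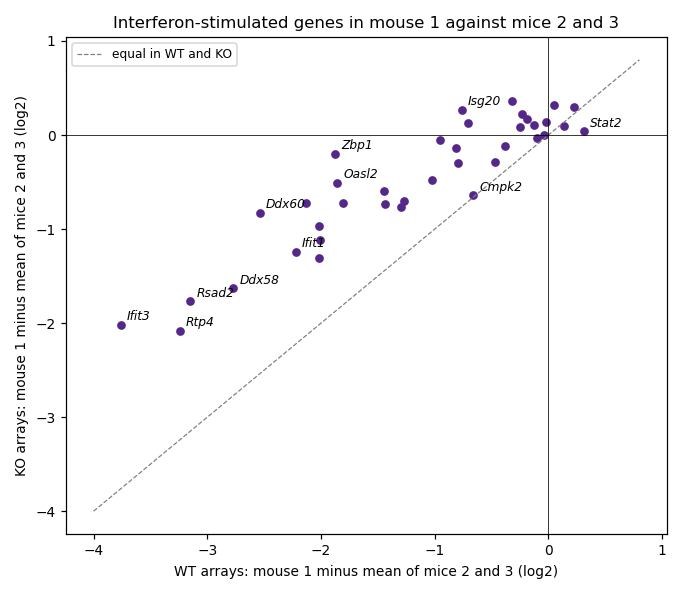
Log2 intensity of mouse 1 minus the mean of mice 2 and 3 in WT (horizontal) and in KO (vertical) arrays, 1 point per ISG, with a dashed line where both are equal. *Ifit3*, *Rtp4*, *Rsad2* and *Ddx58* lie farthest left and below 0 on both axes, and most points lie above the dashed line, since the gap was smaller in KO pDCs.

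The lists of genes that make and read the interferon signal had median differences of -0.15 to 0.06 in mouse 1, and 0 of their genes passed the test. Of 18 type I interferon genes 13 were measured, and 8 of these were within background on all arrays, among them *Ifnb1* at 10.4 to 16.5. Their median difference was -0.04, 0.18 and 0.22 in mice 1, 2 and 3, and 0 passed the adjusted p in limma in either direction. The 3 with the smallest p were *Ifna5* (0.20), *Ifne* (0.18) and *Ifnab* (0.25). Of type II and III interferons *Ifnl2* had a mean difference of 0.48 (adjusted p = 0.70 from limma) and *Ifng* was within background.

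The receptor gene *Ifnar1* had intensities of 1475, 870 and 837 in WT and 1322, 1091 and 1056 in KO pDCs of mice 1, 2 and 3. *Ifnar2* had 3394, 2164 and 1988 in WT and 2925, 2539 and 2316 in KO pDCs. Both chains of the type I receptor were thus highest in mouse 1, where the *Ifit* genes were lowest. *Ifngr1*, of the interferon-gamma receptor, was lower in mouse 1, with 407, 967 and 1069 in WT pDCs. Of the 6 receptor genes 0 passed the adjusted p in limma. *Ifnlr1*, with the smallest p, had a mean difference of 0.23 at levels within background, and *Il10rb*, a chain of the interferon-lambda receptor, followed with -0.10.

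*Irf9*, the DNA-binding subunit of ISGF3, had 468, 434 and 386 in WT and 512, 388 and 393 in KO pDCs. *Irf7*, the master factor for interferon-alpha genes and itself an ISG, had 1644, 1304 and 1876 in WT and 2414, 1452 and 1927 in KO pDCs. *Irf7* was higher in the KO culture of every mouse, by 0.55, 0.16 and 0.04, with a mean of 0.25 (adjusted p = 0.81 from limma). *Irf5* and *Irf2* had smaller p values and lower mean levels in KO pDCs, with mean differences of -0.24 (adjusted p = 0.73) and -0.21 (adjusted p = 0.79). Among kinases *Jak1* had a mean difference of -0.33, *Tyk2* one of 0.13 and *Jak2* one of -0.03. Among inhibitors *Socs1* had one of 0.35, *Socs3* one of -0.27 and *Ptpn11* one of -0.10. Of the measured genes, 0 of 4 for kinases and ISGF3, 0 of 6 for other IRFs and 0 of 6 for inhibitors had an adjusted p under 0.05.

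In a wider list of other ISGs the median difference was above 0 in mouse 1, as for the 38 members, and slightly below 0 in mice 2 and 3. Of 68 listed, 55 were measured, with median differences of 0.30, -0.04 and -0.06 in mice 1, 2 and 3. In mouse 1, 46 of the 55 were higher in the KO culture, where 49.8% of all probe sets were. In mouse 2, 25 were higher (52.4% of all) and in mouse 3, 24 (56.2% of all). Both arrays of mouse 1 lay below the other 4 for 25 of the 55 (14.5% of all probe sets) and above for 10 (21.6% of all). *Ifitm3*, a membrane protein that blocks viral entry, had 1499, 4476 and 4967 in WT and 2637, 3615 and 4513 in KO pDCs. *Bst2*, an ISG that pDCs express as a surface marker and that is also on the pDC list, had 7326, 4908 and 4371 in WT and 6766, 6053 and 5407 in KO pDCs, highest in mouse 1. Of the 55 genes 0 had an adjusted p under 0.05 in limma, and *Nlrc5*, an activator of MHC class I genes, had the smallest p with a mean difference of 0.35 (adjusted p = 0.69). *Cxcl10*, a chemokine, and *Ifi203* followed with 0.68 and 0.18. Both arrays of mouse 1 were within background for *Cxcl10*, at 36.2 in WT and 53.6 in KO pDCs. With the mouse as a block 5 of the 55 were higher (7.46% of all probe sets) and 2 lower (5.99%) at an unadjusted p under 0.05. Without it 1 was higher (5.14% of all) and 0 were lower (1.9%). With the block, too, 0 passed the adjusted p. *Cxcl9*, another chemokine, had the smallest p with the block, with differences of 0.61, 0.59 and 0.80 in the 3 mice. Its mean was 0.67 (adjusted p = 0.26 with the block and 0.79 without it, limma). The WT array of mouse 1, at 46, was within background for this gene. *Ifitm3*, *Bst2* and *Cxcl9* were named after their values were seen.

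**Figure D4:**
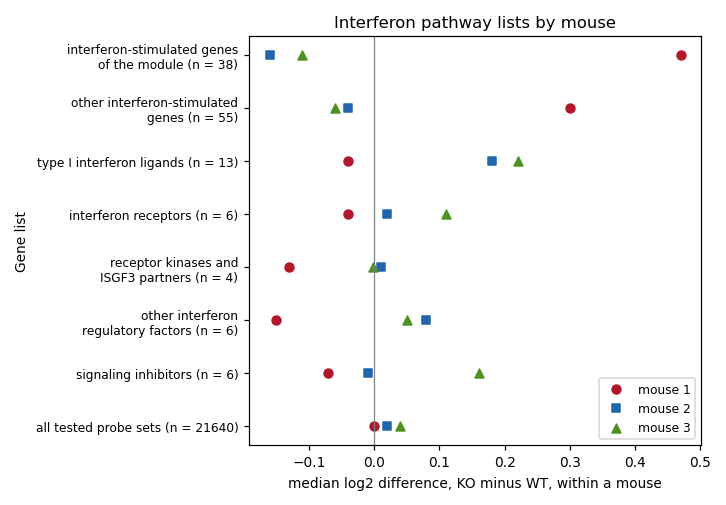
Median log2 difference, KO minus WT, of each gene list within mouse 1 (circles), mouse 2 (squares) and mouse 3 (triangles), with the number of genes measured. The 38 members and the 55 other ISGs are at 0.47 and 0.30 in mouse 1, while the plotted lists of type I ligands, receptors and signaling genes lie between -0.15 and 0.22 over the 3 mice. The 2 type II and III ligand genes, with a median of 0.55 in mouse 2, are not plotted.

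Most macrophage, neutrophil, B lineage and stromal cell markers were, like many ISGs, lowest in mouse 1, while most pDC markers were highest there. Markers of conventional dendritic, T and NK cells, given below, were mixed. Of 15 pDC genes 14 were measured, all above background on some array. Both arrays of mouse 1 lay above the other 4 for 13 of them (21.6% of all probe sets), *Siglech* being at 6917, 3900 and 2721 in WT pDCs. The summed pDC intensity was 20939 to 49963 in WT and 30861 to 47358 in KO pDCs, highest in mouse 1 in both. Macrophage or monocyte sums were 7180, 32366 and 33260 in WT and 6232, 26430 and 29292 in KO pDCs. Of these 11 genes, 10 were below the other 4 arrays in both arrays of mouse 1 (14.5% of all probe sets). The same held for 9 of 11 neutrophil genes, 6 of 7 B lineage genes and 8 of 8 stromal cell genes. Neutrophil sums were 1375 to 11410 in WT and 560 to 4951 in KO pDCs, with *Cxcr2* and *Ly6g* within background on every array. B lineage sums were 926 to 4649 in WT and 1174 to 3288 in KO pDCs, and stromal sums 553 to 8239 in WT and 500 to 2870 in KO pDCs. In these bulk samples fewer cells of a type and less RNA per cell cannot be told apart. The part of these cells in the ISG differences between mice was not tested.

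Within mouse 1, the summed ISG intensity was 18401 in the WT and 24142 in the KO culture. The sums of macrophage (7180 and 6232), neutrophil (1375 and 560), stromal (553 and 500) and pDC genes (49963 and 47358) were lower in the KO culture. Those of B lineage (926 and 1174) and T lineage genes (1679 and 2128) were higher, the latter largely through *Cd4* (802 and 1217). By gene, 3 of 11 macrophage, 5 of 11 neutrophil, 3 of 8 stromal, 6 of 14 pDC and 4 of 7 B lineage genes were higher in that KO culture. Several stromal and neutrophil genes were within background in mouse 1, such as *Lox* (32.8 and 27.2) and *Mmp8* (24.1 and 26.1). Of 7 conventional dendritic cell genes both arrays of mouse 1 were below the others for 2 and above for 1, of 5 T lineage genes for 3 and 2, and of 6 NK cell genes for 0 and 1. *Cd3d* of T cells and *Ncr1*, *Klrb1c* and *Gzma* of NK cells were within background on every array. In mice 2 and 3 the ISG sums were 28473 and 30715 in WT and 26409 and 29754 in KO pDCs. Macrophage, neutrophil and stromal sums of these mice were lower in KO pDCs, as in mouse 1, and T lineage sums were higher. The pDC and B lineage sums went the other way than in mouse 1. For pDC genes they were 26355 and 20939 in WT and 34232 and 30861 in KO pDCs. For B lineage genes they were 4649 and 4318 in WT and 2954 and 3288 in KO pDCs.

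**Figure D5:**
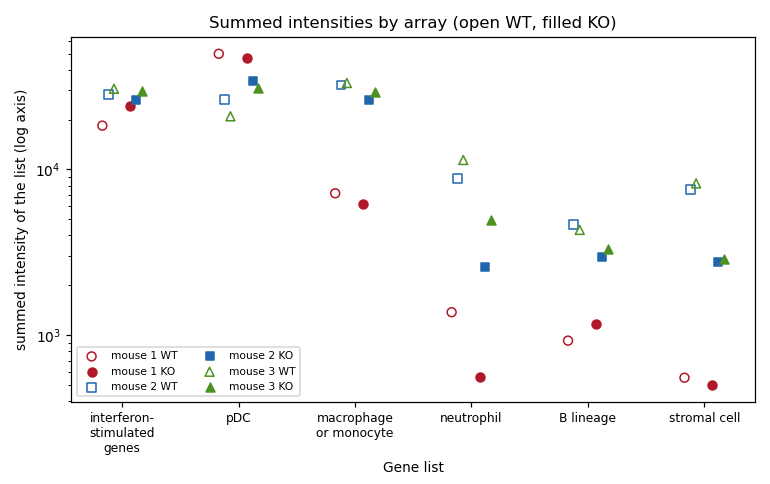
Summed intensity (log axis) of the 38 ISGs and of the marker lists on each array, open for WT and filled for KO, by mouse. For mouse 1 the pDC sum is the highest and the macrophage, neutrophil, B lineage and stromal sums are the lowest, and its ISG sum is 18401 in WT and 24142 in KO pDCs.

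Without both arrays of mouse 1, 24 of the 38 genes were lower in the KO cultures of both remaining mice (28.9% of all probe sets) and 6 were higher (37.5% of all). Their median difference was then -0.12, beside 0.04 for all probe sets. In that fit 108 of all probe sets passed the adjusted p in limma (0.499%), 0 of them ISGs. At an unadjusted p under 0.05, 6 ISGs were lower, *Oas2*, *Oas3*, *Ddx58*, *Ddx60*, *Eif2ak2* and *Parp12*, where 7.79% of all probe sets were. *Usp18* alone was higher, where 9.77% were.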

How the data were processed

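The deposited table holds intensities of 34760 probe sets on 6 Affymetrix Mouse Gene 1.0 ST arrays, from 200 ng of RNA each, as the authors normalized them, linear and between 3.07 and 19106, with array medians of 69.0 to 72.9. Background correction, normalization method and probe set summary are not given in the sources used here. Precision is limited by having 3 arrays a group.

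The log2 of each intensity was taken with no rescaling. The platform table pairs 21640 probe sets with 1 symbol, 1321 with several and 11799 with none, and all 38 member symbols match a RefSeq name (GRCm38.p6). Groups were tested by lmFit and eBayes (limma 3.58.1 in R 4.3.3; two-sided), adjusting by Benjamini and Hochberg over the 21640 probe sets and no filter on dim ones, after the step was tested on simulated data. The simulated arrays held no differences between mice, so that check does not cover the fit without the block where mice differ. The labels pair arrays by mouse. Deviations from the group means correlated within mice (Pearson's r across probe sets of 0.81, 0.51 and 0.67). A fit blocked on mouse was an alternative. Other alternatives were median centring, quantile normalization, dropping dim probe sets, raising values to at least the 20th percentile, averaged probe sets, and leaving out each array or mouse. Promoters are from RefSeq.

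Values of every array were given for the 2 members of each role group with the largest absolute mean difference (1 in groups of 1 or 2), 10 further members and, by difference, 3 genes of each pathway list with the smallest p. Members, lists and tests were chosen with earlier results of these data known, so no test was run over a list.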

Additional observations from a re-analysis of the deposited data

How the results depend on the processing

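With the mouse as a replicate block, 0 probe sets and 0 ISGs passed the adjusted p, as without it, and *Usp18* was again the only one of the 38 ISGs at an unadjusted p under 0.05 (0 lower). At that unadjusted p the block gained *Jak1* and *Socs1*, lost *Ifnlr1* and raised the number of lower genes from 0 to 8 for neutrophils, 7 for stromal cells, 5 for macrophages and 3 for the B lineage, and of higher pDC genes from 1 to 5. It changed no call at the adjusted p. The number of probe sets past the adjusted p was 2 with a floor at the 20th percentile and 0 to 108 when an array or a mouse was left out (108 without both arrays of mouse 1). The number of ISGs past it was 0 under every alternative run. ISGs above WT in all mice numbered 6 to 12 in these leave-outs (12 without either or both arrays of mouse 2), with 4 after centring on the median and 8 after quantile normalization. ISGs below WT in all mice numbered 2 after centring, 0 after quantile normalization and 1 to 24 in the leave-outs (24 without either or both arrays of mouse 1). Each leave-out kept only 2 pairs, so these counts are easier to reach than with 3. Without mouse 1, 37.5% of all probe sets were above and 28.9% below WT in both pairs, against 21.3% and 17.4% in all 3. Shares over all probe sets under the other settings are not given here. The median difference of the ISGs was 0.02 to 0.09 under the scaling alternatives and -0.27 to 0.26 in the leave-outs (-0.27 without the WT array of mouse 1, 0.21 without its KO array). Leaving out 1 array of a pair brings level differences between mice into these values.

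Counts by mouse were repeated under the centring, quantile and floor settings, a choice made after seeing the data. The number of ISGs higher in mouse 1 was 35 to 37, with the mouse 1 against mice 2 and 3 pattern in 19 to 23. Those higher in mouse 2 numbered 13 after quantile normalization, and the ISG median of mouse 2 was -0.18 to -0.07, that of mouse 1 0.42 to 0.49 and that of mouse 3 -0.13 to -0.09. Both arrays of mouse 1 were below the others for 21 to 22 ISGs. The sign of small mean differences turned after quantile normalization for *Adar* (0.05), *Ifih1* (0.03), *Parp12* (0.03), *Rtp4* (0.00076), *Samd9l* (0.0048) and *Tor3a* (0.03), and after centring for *Dtx3l* (-0.01), *Herc6* (-0.01) and *Parp14* (-0.02). In some leave-out the sign turned for 32 of the 38 ISGs, while 6 (*Usp18*, *Trim30a*, *Ifi35*, *Stat2*, *Ifi27l2a* and *Dhx58*) were positive in all. Ranges of the mean difference were *Adar,* -0.11 to 0.07, *Cmpk2,* -0.08 to 0.36, *Ddx58,* -1.26 to 0.21, *Ddx60,* -0.73 to 0.66, *Dtx3l,* -0.06 to 0.07, *Eif2ak2,* -0.37 to 0.16, *Gbp3,* -0.60 to 0.27, *Herc6,* -0.14 to 0.13, *Ifih1,* -0.44 to 0.22, *Ifit1,* -0.41 to 0.74 and *Ifit2,* -0.54 to 0.57. They were *Ifit3,* -0.71 to 1.24, *Isg20,* -0.04 to 0.49, *Lgals3bp,* -0.40 to 0.29, *Mx1,* -0.02 to 0.17, *Mx2,* -0.17 to 0.21, *Oas1a,* -0.57 to 0.40, *Oas2,* -0.65 to 0.44, *Oas3,* -0.75 to 0.30, *Oasl1,* -0.15 to 0.40, *Oasl2,* -0.46 to 0.55 and *Parp12,* -0.68 to 0.36. They were also *Parp14,* -0.33 to 0.18, *Parp9,* -0.04 to 0.19, *Rsad2,* -1.0 to 0.71, *Rtp4,* -1.11 to 0.66, *Samd9l,* -0.29 to 0.16, *Sp100,* -0.15 to 0.03, *Tor3a,* -0.15 to 0.06, *Trim25,* -0.12 to 0.01, *Xaf1,* -0.25 to 0.52 and *Zbp1,* -0.47 to 0.55. The cause was not tested.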
